A study of Mus musculus with 9 samples.

Results

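The 10 genes Nqo1, Hmox1, Gclc, Gclm, Txnrd1, Srxn1, Sod1, Sod2, Cat and Gpx1 code for enzymes that detoxify reactive oxygen species or are classic targets of the transcription factor NRF2. They were chosen by symbol, and all 10 were found among the 17314 genes of the deposited table and among the 13044 genes that passed the filter on low counts. RNA was sequenced from gastrocnemius, the large calf muscle, of mice aged 6, 15 and 21 months, with 3 mice per age and 1 library per mouse. The sources used here do not state the strain, genotype, sex or any treatment of the mice. The comparisons ask whether RNA levels of these genes differed between the ages.

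NRF2, encoded by Nfe2l2, is held in the cytosol and marked for degradation by KEAP1. Oxidants and electrophiles modify KEAP1, after which NRF2 enters the nucleus, pairs with small MAF proteins and binds antioxidant response elements near its target genes. In skeletal muscle, contraction and mitochondrial respiration produce superoxide, which superoxide dismutases turn into hydrogen peroxide. Catalase, glutathione peroxidases and peroxiredoxins then remove the peroxide, with reducing power from glutathione and thioredoxin.

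Total counts ranged from 15354396 to 17317856 per library, and the 10 genes together took 0.0653 to 0.106% of the counts. The deposited counts of single members ranged from 139 for Hmox1 to 5316 for Sod2. Counting error alone gives a coefficient of variation of 7.56% for Hmox1 and 1.55% for Sod2 at their mean counts. Oxidative fibre markers, a list of 10 genes with Myh7 and other genes of slow fibres, and with Myh2, the myosin of fast oxidative IIa fibres, had a wide spread among mice of one age. Their summed level was 95.5 to 1915 CPM (a gene's share of the counts in its library, scaled by TMM factors) at 6 months, 1221 to 5610 CPM at 15 months and 1317 to 4755 CPM at 21 months. Myh2 alone made up 68.3 to 84.1% of this sum in 8 libraries and 0.786% in mouse 2 at 6 months. Glycolytic fibre markers summed to between 102740 and 152260 CPM in every library. Mouse 2 at 6 months, mouse 1 at 15 months and mouse 3 at 21 months lay farthest out on the first principal component among the mice of their age.

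Promoter sequences are shown for Srxn1, the member that differed most between ages, and for Gclm. Gclm was lower in mean at both older ages, as were Hmox1, Gclc, Sod1 and Gpx1. The sequences come from RefSeq on GRCm38.p6 (mm10) and run 5′ to 3′ on the strand of the gene. They cover 250 bases before to 50 bases after a RefSeq transcript start. Srxn1 and Gclm are on the forward strand. The Srxn1 window lies at chr2:152105274-152105573 and the Gclm window at chr3:122245307-122245606. Capitals mark the core of the antioxidant response element, searched as TGACNNNGC and TGAGNNNGC on both strands.
Srxn1: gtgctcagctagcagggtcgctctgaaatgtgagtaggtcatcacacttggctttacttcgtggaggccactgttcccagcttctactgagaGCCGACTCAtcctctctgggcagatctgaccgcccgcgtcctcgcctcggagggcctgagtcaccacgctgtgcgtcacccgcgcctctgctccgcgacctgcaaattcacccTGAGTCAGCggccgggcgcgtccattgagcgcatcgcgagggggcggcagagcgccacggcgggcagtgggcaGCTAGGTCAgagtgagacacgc
Gclm: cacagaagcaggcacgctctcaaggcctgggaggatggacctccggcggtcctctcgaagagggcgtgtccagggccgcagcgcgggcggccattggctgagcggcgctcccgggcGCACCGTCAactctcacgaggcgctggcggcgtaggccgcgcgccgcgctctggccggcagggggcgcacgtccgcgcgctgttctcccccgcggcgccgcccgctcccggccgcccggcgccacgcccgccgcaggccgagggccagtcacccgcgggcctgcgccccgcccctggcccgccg

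The Srxn1 window held 3 matches, which began 158 and 45 bases upstream and 28 bases downstream of that start, which is also the annotated start of the gene. The Gclm window is built on a start at 122245557, 70 bases inside the annotated start of the gene, and held 1 match, 134 bases upstream of the start at 122245557. The reference held windows for 8 of the 10 members and none for Hmox1 and Gclc, which were not searched. There were 10 windows in all because Txnrd1 had 3, and 4 windows held a match: those of Srxn1 and Gclm, 1 of Txnrd1 and that of Sod1. Bases outside the windows were not searched. Over all 32851 promoter windows of the same length, 27.8% held a match to either spelling, so a match is common and describes only the letters.

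The level of each member was set per length of its principal GENCODE transcript, as CPM per kilobase of that transcript (RPKM), and averaged over the 9 libraries. Sod1, the cytosolic copper and zinc superoxide dismutase, was highest at 155 ± 30.1 RPKM (SD, n = 9). Cat, the catalase of peroxisomes, followed at 53.2 ± 18.1 RPKM. Gpx1, the main cytosolic glutathione peroxidase and a selenoprotein, stood at 51.3 ± 4.01 RPKM. Sod2, the manganese superoxide dismutase of mitochondria, stood at 44.1 ± 7.05 RPKM. These dismutases and peroxidases formed the upper end of the order.

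Next came Txnrd1, the cytosolic thioredoxin reductase and a selenoprotein, at 35.3 ± 7.54 RPKM. Nqo1, a quinone reductase, stood at 20 ± 3.18 RPKM and Srxn1, the sulfiredoxin that repairs overoxidised peroxiredoxins, at 18.6 ± 8.02 RPKM. The lowest levels belonged to Gclc, the catalytic subunit of the enzyme that limits glutathione synthesis, to Hmox1, the inducible haem oxygenase, and to Gclm, the modifier subunit that partners Gclc. They stood at 8.23 ± 1.03, 6.88 ± 1.08 and 3.51 ± 0.725 RPKM in that order. Gaps without overlap between any libraries lay between Sod1 and Cat, between Txnrd1 and Nqo1, and between Hmox1 and Gclm. Other neighbours in the order overlapped. The order and these gaps depend on the length used. Per length of all annotated exons, Sod1 stood at 25.1 RPKM and Cat at 53.2 RPKM, and Cat was then the highest. Txnrd1 then stood at 17.6 RPKM, below Nqo1 at 20 RPKM and Srxn1 at 18.5 RPKM.

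Srxn1 was the member with the largest difference between ages, with a mean level 2.03 times as high at 21 as at 6 months in the fit. The fitted log2 fold changes of the other 9 members lay between -0.36 and 0.32 in the 3 comparisons of ages. In edgeR's quasi-likelihood test with Benjamini-Hochberg adjustment over all 13044 genes, 0 of 10 members passed an adjusted p of 0.05 at 21 against 6 months, where 0.0153% of all genes passed. An unadjusted p under 0.05 was reached by 1 of the 10, Srxn1, where 10.6% of all genes reached it. DESeq2 called 0 of 10 in the same comparison, where it called 1.53% of all genes. With 5 of the 10 above 0, beside 48.0% of all genes, the median log2 fold change of the 10 was 0.02, beside -0.01 over all genes tested. The groups did not overlap for 1 member, which was higher at 21 months, where 7.81% of all genes were higher without overlap, 8.31% lower and 16.1% either. In bulk muscle, fewer cells of a type and less RNA per cell cannot be told apart.

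**Figure D1:**
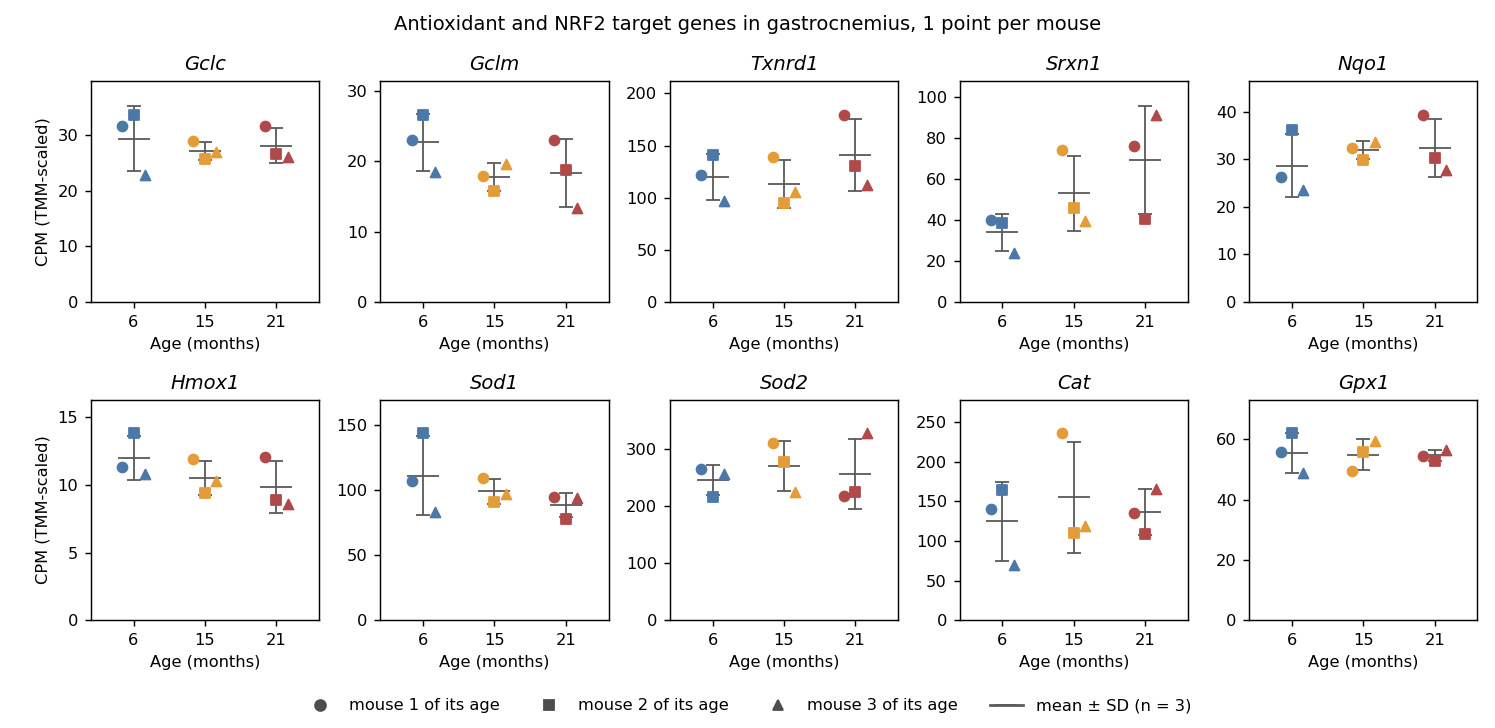
TMM-scaled CPM of each of the 10 genes (vertical axis from 0, CPM) at 6, 15 and 21 months (horizontal axis), with 1 point per mouse and the mean ± SD of 3 mice. The Srxn1 points at 21 months start at 40.3 CPM, just above the highest point at 6 months, 40.0 CPM, and every other gene overlaps between 21 and 6 months.

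At 15 against 6 months edgeR called 0 of 10 members, where it called 0.00767% of all genes. An unadjusted p under 0.05 was reached by 0 of the 10, beside 10.3% of all genes, and DESeq2 called 0 of 10, beside 0.874%. In this comparison 4 of 10 members were above 0, beside 48.6% of all genes, with a median of -0.05 beside -0.01. The groups overlapped for all 10, where 6.64% of all genes were higher without overlap, 7.14% lower and 13.8% either.

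At 21 against 15 months edgeR called 0 of 10 members and 0% of all genes. An unadjusted p under 0.05 was reached by 0 of 10, beside 1.82% of all genes, and DESeq2 called 0 of 10, beside 0.0230%. Of the 10, 5 were above 0, beside 49.2% of all genes. The groups overlapped for all 10, where 2.84% of all genes were higher without overlap, 3.30% lower and 6.14% either. Over the 3 ages, the quasi-likelihood F-test of edgeR called 0 of 10, beside 0% of all genes, and the likelihood ratio test of DESeq2 called 0 of 10, beside 1.56%. Srxn1 was the 1 member with an unadjusted p under 0.05 in the F-test of edgeR, which 8.55% of all genes reached.

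A slope over age in months, which uses all 9 mice, called 0 of 10 members in edgeR, where it called 0.222% of all genes. Srxn1 alone reached an unadjusted p under 0.05, with 12.1% of all genes. DESeq2 called 1 member on the slope, Srxn1 (adjusted p = 0.0396), where it called 2.09% of all genes. The 2 tools differ in this call, and neither called Srxn1 in a comparison between 2 ages.

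**Figure D2:**
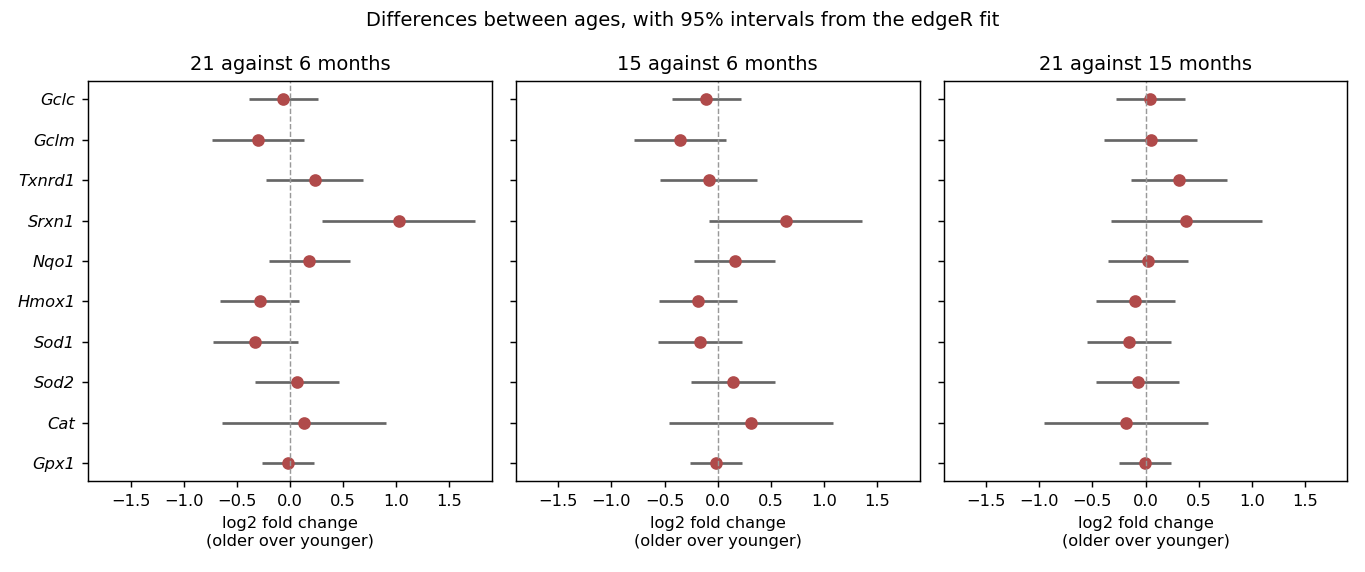
Log2 fold change of each gene (horizontal axis, older over younger) for 21 against 6, 15 against 6 and 21 against 15 months, with 95% intervals from the edgeR fit that are not adjusted for the number of genes. The Srxn1 interval at 21 against 6 months runs from 0.30 to 1.74, and every other interval in the 3 panels includes 0.

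Srxn1 (Entrez ID 76650) lies on chromosome 2 from 152105524 to 152111376 on mm10. Levels of Srxn1 were 40.03, 38.6 and 23.7 CPM in mice 1, 2 and 3 of 6 months, 73.9, 45.7 and 39.6 CPM in those of 15 months and 76.2, 40.3 and 91.4 CPM in those of 21 months. Mouse 1 at 15 months and mice 1 and 3 at 21 months were high, while mouse 2 at 21 months lay level with the 2 higher mice at 6 months. Srxn1 averaged 69.3 ± 26.3 CPM in 21-month mice, against 34.1 ± 9.03 CPM in 6-month mice (SD, n = 3 each). On the log2 scale this was 1.02 (SE 0.33; edgeR adjusted p = 0.291), and 3 of 3 older mice lay above every mouse at 6 months, as for 7.81% of all genes. DESeq2 gave an adjusted p of 0.0562. The mean of the 15-month mice was 53.1 ± 18.3 CPM (SD, n = 3), 0.64 above that at 6 months on the log2 scale (SE 0.32), with an edgeR adjusted p of 0.538. That difference was 0.32 without mouse 1 at 15 months. The 21-month mice stood 0.38 above the 15-month mice (log2, SE 0.32), and leaving out mouse 3 of 21 months gave 0.13 while leaving out mouse 1 of 15 months gave 0.699.

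On the slope, Srxn1 stood 1.02 log2 units higher over 15 months of age (SE 0.31), with an edgeR adjusted p of 0.226. Without any 1 of the 9 libraries the difference at 21 against 6 months stayed between 0.77 and 1.3 and the edgeR adjusted p between 0.222 and 0.606. Without the 3 libraries farthest out on the first principal component, an alternative chosen after seeing the data, it was 0.87 (adjusted p = 0.337). Srxn1 had the widest spread of the 10 members, with a highest library 3.85 times its lowest. In the 3 mice with the highest Srxn1, the oxidative fibre markers summed to 4755 CPM in mouse 3 at 21 months, 1516 CPM in mouse 1 at 21 months and 5610 CPM in mouse 1 at 15 months. All 10 of these markers stood above 0 at 21 against 6 months, beside 48.0% of all genes, with a median log2 fold change of 2.0005. The groups did not overlap for 2 of the 10, both higher at 21 months, where 7.81% of all genes were higher without overlap. The markers summed to 1915, 95.5 and 746 CPM in mice 1, 2 and 3 at 6 months, so the sums of the 2 ages overlapped. Calls by edgeR numbered 0 among the 10, beside 0.0153% of all genes. The part of fibre composition in the Srxn1 difference was not tested.

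Txnrd1 (Entrez ID 50493, chromosome 10, 82833951 to 82897724) keeps thioredoxin reduced. The 6-month mice 1, 2 and 3 had 122, 141 and 96.9 CPM, the 15-month mice 139, 94.99 and 106 CPM and the 21-month mice 179.6, 130.2 and 112 CPM. Mouse 1 at 21 months held the highest value, and the 3 ages overlapped. Txnrd1 averaged 141 ± 34.8 CPM in 21-month mice, against 119.9 ± 21.99 CPM in 6-month mice (SD, n = 3 each). As a log2 difference this was 0.23 (SE 0.20; edgeR adjusted p = 0.730), which was 0.02 without mouse 1 at 21 months. The 21-month mice stood 0.32 above the 15-month mice (log2, SE 0.20; 0.10 without mouse 1 at 21 months), which in turn stood at -0.08 relative to the 6-month mice (SE 0.20).

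Gclc and Gclm, the subunits of glutamate-cysteine ligase, had a correlation of 0.74 over the 9 libraries. Gclc has Entrez ID 14629 and lies on chromosome 9 from 77754535 to 77794489. Gclc had 31.6, 33.6 and 22.7 CPM in 6-month mice 1, 2 and 3, 28.9, 25.7 and 26.9 CPM in the 15-month mice and 31.6, 26.5 and 25.9 CPM in the 21-month mice. Mouse 3 at 6 months was the lowest of all 9 and mouse 2 at 6 months the highest, so the youngest group spanned both older ones. The log2 fold change of the 21-month mice against 6 months was -0.07 (SE 0.15), with a 95% interval of 0.763 to 1.2-fold. That of the 15-month mice was -0.11 (SE 0.15).

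Gclm has Entrez ID 14630 and lies on chromosome 3 from 122245487 to 122267215. Levels of Gclm were 23.1, 26.7 and 18.5 CPM in mice 1, 2 and 3 of 6 months, 17.9, 15.8 and 19.6 CPM in those of 15 months and 23.02, 18.8 and 13.4 CPM in those of 21 months. All ages overlapped, and mouse 3 at 21 months was the lowest. Gclm averaged 18.4 ± 4.82 CPM in 21-month mice and 17.8 ± 1.94 CPM in 15-month mice, against 22.7 ± 4.08 CPM in 6-month mice (SD, n = 3 each). Against 6 months the log2 fold change was -0.30 for the 21-month mice (SE 0.20), with an edgeR adjusted p of 0.612. For the 15-month mice it was -0.36 (SE 0.20), with an edgeR adjusted p of 0.568. Leaving out mouse 3 or mouse 1 of 21 months gave -0.12 or -0.498 for the first of these, and it was 0.008 without the 3 outlying libraries. Exons of Gclm share 296 bases with Gm17494 on the opposite strand and 244 bases with Gm6061 on the same strand in the GENCODE annotation. The sources used here do not state whether counting used the strand, so reads of these stretches are uncertain.

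Nqo1 (Entrez ID 18104, chromosome 8, 107388225 to 107403205) is often read as a marker of NRF2 activity. The 6-month mice 1, 2 and 3 had 26.2, 36.2 and 23.7 CPM, the 15-month mice 32.4, 29.96 and 33.6 CPM and the 21-month mice 39.4, 30.2 and 27.9 CPM. The ages overlapped, with mouse 1 at 21 months highest and mouse 3 at 6 months lowest. The 21-month mice stood 0.18 above the 6-month mice on the log2 scale (SE 0.17), with an edgeR adjusted p of 0.748 and a 95% interval of 0.871 to 1.48-fold. Leaving out mouse 1 of 21 months gave 0.02 and leaving out mouse 2 of 6 months gave 0.38. The 15-month mice stood 0.16 above those at 6 months (SE 0.17), and the 21-month mice 0.02 above the 15-month mice (SE 0.17).

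Hmox1 has Entrez ID 15368 and lies on chromosome 8 from 75093618 to 75100593. Hmox1 had 11.3, 13.8 and 10.9 CPM in 6-month mice 1, 2 and 3, 11.9, 9.43 and 10.3 CPM in the 15-month mice and 12.1, 8.89 and 8.58 CPM in the 21-month mice. The ages overlapped, with mouse 1 at 21 months above 2 of the 6-month mice. Hmox1 averaged 9.85 ± 1.94 CPM in 21-month mice, against 12 ± 1.6 CPM in 6-month mice (SD, n = 3 each). In log2 terms that was -0.28 (SE 0.17; edgeR adjusted p = 0.575), and for the 15-month mice against 6 months it was -0.19 (SE 0.17). Leaving out mouse 2 of 6 months gave -0.17 for the first and -0.07 for the second, and leaving out mouse 1 of 21 months gave -0.457 for the first. Macrophages, which break down haem from red cells, also make haem oxygenase. The 10 macrophage markers, none at 0 in any library, summed to 165 to 239.9 CPM in 21-month mice and 123 to 245 CPM in 15-month mice. In 6-month mice 1, 2 and 3 they summed to 393, 229 and 225 CPM, so only mouse 1 lay above the older mice. The part of macrophages in the Hmox1 values was not tested.

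The profiles of the superoxide dismutases had a correlation of -0.09 over the 9 libraries. Sod1 has Entrez ID 20655 and lies on chromosome 16 from 90220762 to 90226333. Levels of Sod1 were 107, 144 and 83.1 CPM in mice 1, 2 and 3 of 6 months, 109, 90.7 and 97.04 CPM in those of 15 months and 94.5, 78.03 and 93.7 CPM in those of 21 months. Mouse 2 at 6 months was far above the others, and the ages overlapped. Sod1 averaged 88.7 ± 9.29 CPM in 21-month mice, against 111 ± 30.6 CPM in 6-month mice (SD, n = 3 each). On the log2 scale this was -0.33 (SE 0.18; edgeR adjusted p = 0.550), and the 95% interval was 0.606 to 1.05-fold. It was -0.10 without mouse 2 at 6 months. The estimated counts of Sod1 were not whole in 5 libraries, by at most 0.02 reads.

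Sod2 has Entrez ID 20656 and lies on chromosome 17 from 13007839 to 13018119. The 6-month mice 1, 2 and 3 had 266, 217 and 256 CPM, the 15-month mice 311, 278 and 225 CPM and the 21-month mice 219, 226 and 328 CPM. Mouse 3 at 21 months and mouse 1 at 15 months were the highest, and mouse 2 at 6 months was the lowest. These are the mice with the 2 highest sums and the lowest sum of oxidative fibre markers. The 21-month mice stood 0.06 above the 6-month mice on the log2 scale (SE 0.18) and the 15-month mice 0.14 above them (SE 0.18), and the 21-month mice stood at -0.08 relative to the 15-month mice (SE 0.18). Without the 3 outlying libraries the first of these was -0.23 (SE 0.13), with an edgeR adjusted p of 0.494.

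Cat (Entrez ID 12359), one of the peroxide-removing enzymes, lies on chromosome 2 from 103453904 to 103485153. Cat had 141, 165 and 69.5 CPM in 6-month mice 1, 2 and 3, 236, 110.03 and 119.5 CPM in the 15-month mice and 135, 108 and 166 CPM in the 21-month mice. Mouse 1 at 15 months stood at 3.40 times the level of mouse 3 at 6 months, and all ages overlapped. The 21-month mice stood 0.13 above the 6-month mice on the log2 scale (SE 0.35), with a 95% interval of 0.640 to 1.86-fold. The 15-month mice stood 0.31 above the 6-month mice (SE 0.35), with an edgeR adjusted p of 0.789, which was -0.12 without mouse 1 at 15 months.

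Gpx1 (Entrez ID 14775, chromosome 9, 108339080 to 108340342) had the lowest coefficient of variation of the 10 members over the 9 libraries, 7.82%. Levels of Gpx1 were 55.6, 61.96 and 48.7 CPM in mice 1, 2 and 3 of 6 months, 49.4, 55.7 and 59.4 CPM in those of 15 months and 54.5, 52.7 and 56.6 CPM in those of 21 months. The values at 21 months lay within the range at 6 months, with means of 54.6 ± 1.92 CPM in 21-month mice and 55.4 ± 6.64 CPM in 6-month mice (SD, n = 3 each). The log2 fold change was -0.02 (SE 0.11), with a 95% interval of 0.832 to 1.17-fold.

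Some libraries were extreme for several members. Mouse 3 at 6 months was the lowest of all 9 libraries for 5 of 10 members, Nqo1, Gclc, Srxn1, Cat and Gpx1. Mouse 2 of the same age was the highest for 5, Gclc, Gclm, Hmox1, Sod1 and Gpx1. Mouse 1 at 21 months was the highest for Nqo1 and Txnrd1. Mouse 3 at 21 months was the highest for Srxn1 and Sod2 and the lowest for Gclm and Hmox1.

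**Figure D3:**
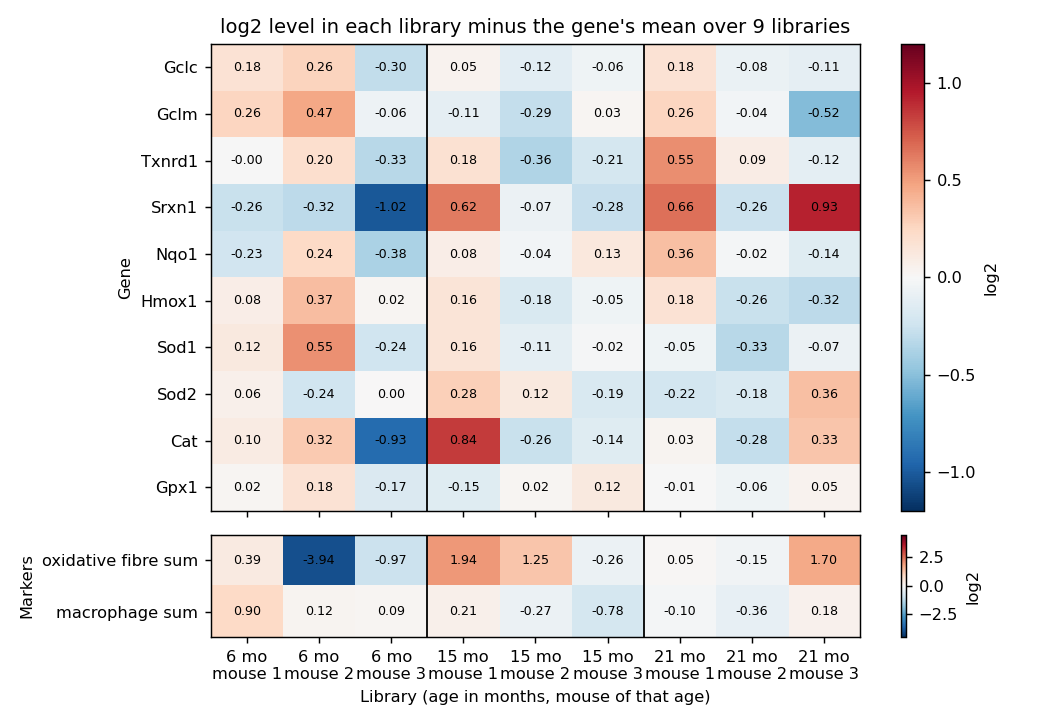
Log2 CPM of each gene in each library minus the mean of that gene over the 9 libraries (upper panel), and the same for the summed oxidative fibre and macrophage markers (lower panel, wider colour scale), with libraries ordered by age. Mouse 3 at 6 months stands low for Srxn1 and Cat, and the oxidative fibre sum is lowest in mouse 2 at 6 months.

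As a description of the 9 libraries, which differ in depth, scaling and age, 36 of the 45 pairs of members had a positive Pearson correlation of log2 CPM. The range was from -0.75 for Gclm with Sod2 to 0.83 for Gclm with Hmox1. Among the 6 classic NRF2 targets (Nqo1, Hmox1, Gclc, Gclm, Txnrd1 and Srxn1) 13 of 15 pairs were positive. The negative pairs were Srxn1 with Gclm at -0.35 and Srxn1 with Hmox1 at -0.13. Srxn1 was highest with Cat, at 0.74.

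Beyond the members, the most alike of 9959 other genes with a mean of at least 5 CPM was named for each, over the same 9 libraries. These were Gigyf2 for Gclm, Dlat for Sod2 and Pdzrn3 for Sod1, each with a Pearson correlation of 0.98. Next came Polr2c for Gpx1 and Mlycd for Cat, each at 0.97. The others were Txnrd1 with Ubfd1, Hmox1 with Cpsf1, Nqo1 with Abcf3, Gclc with Rap1a and Srxn1 with Ube2z, at 0.95 each. As the highest of so many values, each is given as a description only.

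The relation of the members to fibre type was computed on 9 mice as the correlation of log2 CPM with the log2 sum of the oxidative fibre markers, 10 relations in all. Sod2 had a Pearson r of 0.74 (two-sided exact permutation p = 0.0146, adjusted p = 0.118) and a Spearman rho of 0.83 (exact permutation p = 0.00827, adjusted p = 0.0539). Without the 2 mice farthest from the median of the marker sum, mouse 2 at 6 months and mouse 1 at 15 months, the Sod2 r was 0.74. Gclm ran the other way, with an r of -0.74 (exact permutation p = 0.0235, adjusted p = 0.118) and a rho of -0.63 (exact permutation p = 0.0760, adjusted p = 0.253), and an r of -0.63 without those mice. For Srxn1 the r was 0.57 (exact permutation p = 0.105, adjusted p = 0.263) and the rho 0.82 (exact permutation p = 0.0108, adjusted p = 0.0539), with an r of 0.73 without them.

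No relation to this sum passed an adjusted p of 0.05 by either coefficient. For Cat the r was 0.23 (exact permutation p = 0.518, adjusted p = 0.589), the rho 0.52 (exact permutation p = 0.162, adjusted p = 0.405) and the r without those mice 0.72. The r of the other 6 members lay between -0.58 and -0.17, with adjusted exact permutation p from 0.263 to 0.656. Without those mice it was 0.54 for Gpx1, 0.34 for Sod1, 0.16 for Gclc and 0.05 for Nqo1, all of them negative with all 9 mice, and -0.53 for Hmox1 and -0.09 for Txnrd1. With deviations from the mean of each age, so that age itself drops out, the correlation was 0.81 for Sod2, -0.72 for Nqo1, -0.60 for Gclm, -0.55 for Gpx1, 0.33 for Srxn1 and 0.08 for Cat, and between -0.42 and -0.29 for the other 4, given as descriptions of 9 libraries.

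Since Myh2 carried most of the sum, the 10 relations were also computed without it, an alternative chosen after seeing the data. The Sod2 r was then 0.83 (exact permutation p = 0.00626, adjusted p = 0.0352) and its rho 0.78 (exact permutation p = 0.0172, adjusted p = 0.128). For Gclm the r was -0.83 (exact permutation p = 0.00704, adjusted p = 0.0352) and the rho -0.75 (exact permutation p = 0.0255, adjusted p = 0.128). Both passed by Pearson's r and not by Spearman's rho, and without the same 2 mice their r was 0.76 for Sod2 and -0.85 for Gclm. All permutations, with and without Myh2, shuffled mice across ages, so differences between ages enter these p-values. Each adjustment covered the 10 relations of 1 coefficient with 1 sum. Deviations from age means were not computed for the sum without Myh2. For Srxn1 the r was 0.62 (exact permutation p = 0.0757, adjusted p = 0.245) and the rho 0.65 (exact permutation p = 0.0666, adjusted p = 0.222).

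**Figure D4:**
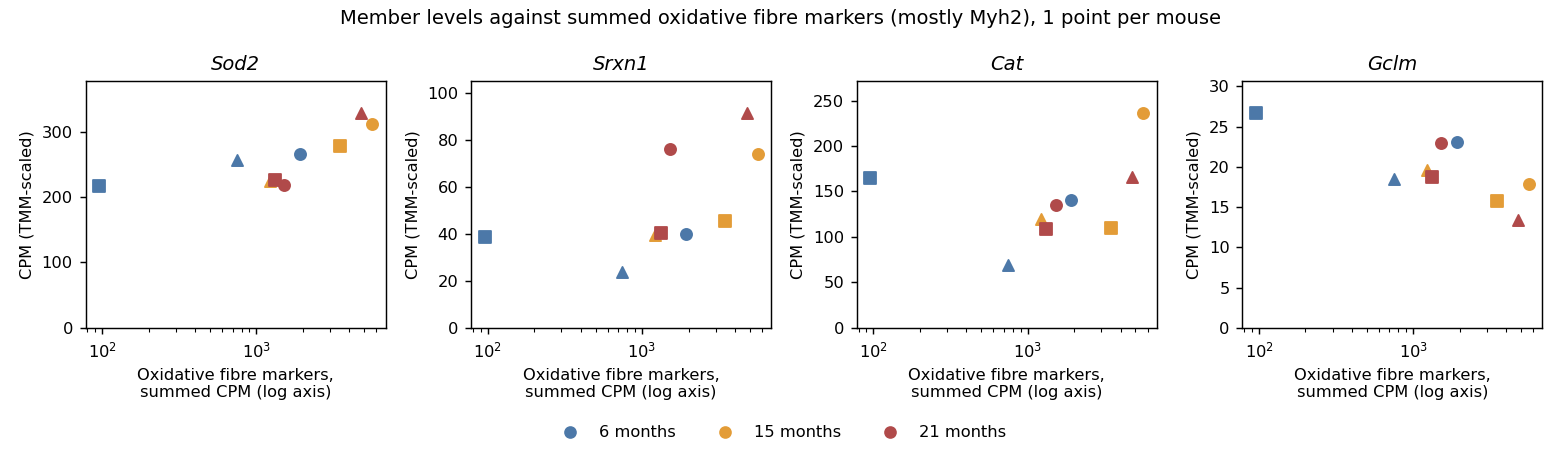
TMM-scaled CPM of Sod2, Srxn1, Cat and Gclm (vertical axes from 0) against the summed CPM of 10 oxidative fibre markers, in 8 libraries mostly Myh2 (horizontal log axis), with 1 point per mouse coloured by age and shaped by mouse number. Sod2 is highest, at 311 and 328 CPM, in the mice with the 2 highest marker sums, and mouse 2 at 6 months lies far to the left at 95.5 CPM.

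The wider pathway was read from 6 lists, which together hold 90 genes besides the members, all of them tested, and were chosen with earlier results of these data known. At 21 against 6 months edgeR called 0 of the 90 in either direction, beside 0.0153% of all genes. An unadjusted p under 0.05 was reached by 9 of them, 10%, beside 10.6% of all genes. The median log2 fold change of the 90 was -0.02. DESeq2 called 1 of the 90 as higher, Mgst1, and 0 as lower, which is 1.11% of the 90 beside 1.53% of all genes. At 15 against 6 months edgeR again called 0, beside 0.00767% of all genes, and 10% had an unadjusted p under 0.05, beside 10.3%. DESeq2 called Mgst1 there too, again 1.11% of the 90, beside 0.874% of all genes. At 21 against 15 months edgeR called 0 of the 90, beside 0% of all genes, and 0 had an unadjusted p under 0.05, beside 1.82% of all genes.

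Mgst1, a membrane-bound glutathione transferase with peroxidase activity, was the 1 gene of the 90 that DESeq2 called. The 6-month mice 1, 2 and 3 had 57.5, 41.2 and 38.1 CPM, the 15-month mice 104.9, 83.8 and 84.5 CPM and the 21-month mice 78.7, 63.2 and 93.9 CPM. All 6 older mice lay above all 3 mice at 6 months. Of all genes, 7.81% were higher without overlap at 21 against 6 months and 6.64% at 15 against 6 months. The 21-month mice stood 0.79 above the 6-month mice on the log2 scale (SE 0.185), where edgeR gave an adjusted p of 0.159 and DESeq2 one of 0.00897. The 15-month mice stood 0.998 above them (SE 0.19), where edgeR gave an adjusted p of 0.194 and DESeq2 one of 0.000538. On the age slope the adjusted p was 0.240 in edgeR and 0.0401 in DESeq2. Of the 5 adipocyte markers tested, 1 stood above 0 and 4 below 0 at 21 against 6 months, where 48.0% of all genes stood above 0. The median log2 fold change of the 5 was -1.17. Fabp4, which endothelial cells also express, was the 1 above 0, at 0.41 (SE 0.23), and made up 86.4 to 98.8% of the summed level of the list of 7 in each library. Without Fabp4 the list summed to 6.76 to 8.85 CPM in 21-month mice and 3.0 to 8.75 CPM in 15-month mice. In 6-month mice 1, 2 and 3 it summed to 5.36, 44.8 and 6.47 CPM, so only mouse 2 was high at that age. The 4 markers below 0 each had their highest level in that mouse. Plin1 was at 0 in mouse 2 at 15 months. The part of adipocytes in the Mgst1 values was not tested.

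**Figure D5:**
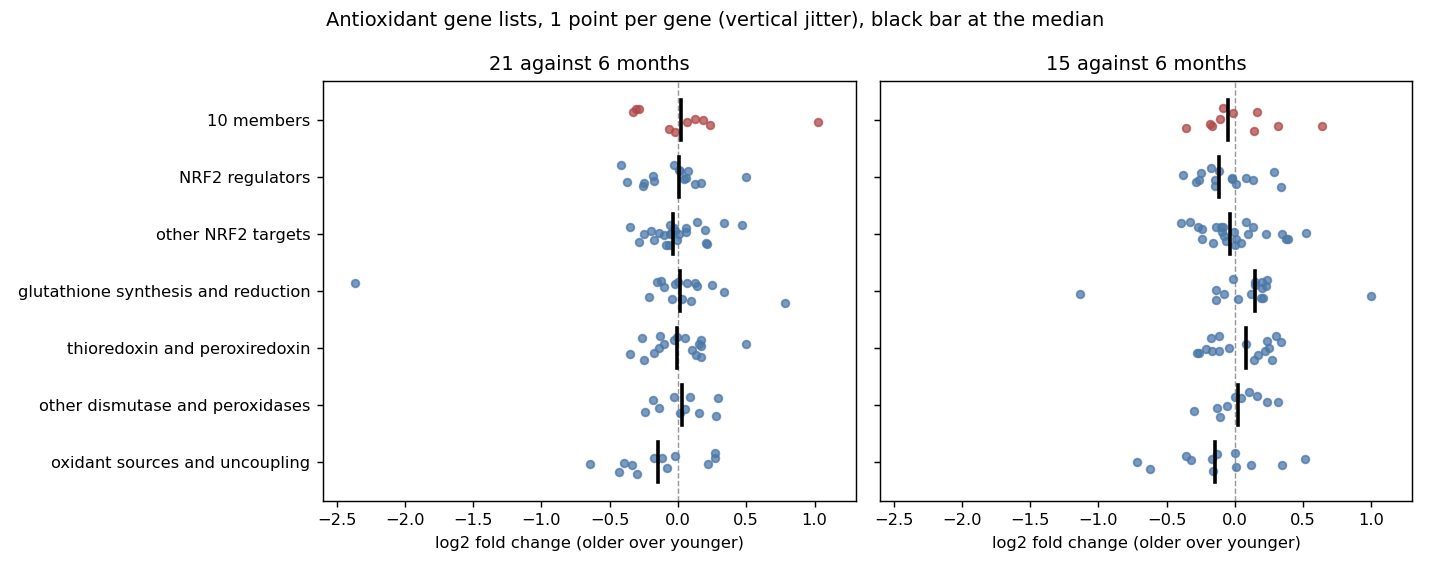
Log2 fold change (horizontal axis, older over younger) of each gene of the members and of the 6 pathway lists at 21 against 6 months (left) and 15 against 6 months (right), with 1 point per gene, jittered vertically, and a black bar at the median of a list. List medians lie between -0.15 and 0.15, and the rightmost point of the glutathione list is Mgst1 at 0.79 and 0.998. The leftmost point, in the same list, is Chac1 at -2.37 and -1.14.

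The 15 regulators of NRF2 activity had 0 calls in edgeR and in DESeq2 in every comparison. Of all genes, edgeR called 0 to 0.222% and DESeq2 0.0230 to 2.09%, depending on the comparison. Nfe2l2 averaged 67.7 ± 4.07 CPM in 21-month mice and 78.5 ± 11.1 CPM in 15-month mice, against 64.4 ± 5.92 CPM in 6-month mice (SD, n = 3 each). Against 6 months, the log2 fold change was 0.07 for the 21-month mice (SE 0.12) and 0.29 for the 15-month mice (SE 0.12), the second with an edgeR adjusted p of 0.442. At 21 against 6 months Keap1 stood at -0.19 (SE 0.11, edgeR adjusted p = 0.581). Bach1, a repressor that competes with NRF2 at Hmox1 and other targets, stood at -0.38 (SE 0.16, edgeR adjusted p = 0.430). Gsk3b, a kinase that promotes NRF2 degradation, had the smallest p of the list, at -0.42 (SE 0.15, edgeR adjusted p = 0.348). The most abundant were Sqstm1, the autophagy receptor that can sequester KEAP1, at 0.02 (SE 0.17), and Nfe2l1, a relative of NRF2 that governs proteasome genes, at 0.17 (SE 0.14).

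Other NRF2 targets had a median log2 fold change of -0.04 at 21 against 6 months, with 9 of 24 above 0, beside 48.0% of all genes. Calls by edgeR numbered 0 in this list, beside 0.0153% of all genes. Fth1, the ferritin heavy chain that stores iron, stood at -0.06 (SE 0.13) and Me1, the cytosolic malic enzyme that makes NADPH, at -0.20 (SE 0.20). Tkt, the transketolase of the pentose phosphate pathway, had the smallest p of the list, at -0.35 (SE 0.12, adjusted p = 0.346). Among the 16 glutathione genes the median was 0.02, and the most abundant, Glrx3 and Mgst3, stood at -0.001 (SE 0.09) and -0.11 (SE 0.20). Chac1, which degrades glutathione, is named here after its values were seen. It averaged 11.6 ± 0.711 CPM in 21-month mice, against 59.9 ± 64.6 CPM in 6-month mice (SD, n = 3 each), of which mouse 1 alone held 134 CPM. As a log2 difference this was -2.37 (SE 0.66; edgeR adjusted p = 0.228.)

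Thioredoxin and peroxiredoxin genes, 17 in all, had a median of -0.004 at 21 against 6 months with 0 called by edgeR, beside 0.0153% of all genes. Prdx1, an abundant cytosolic peroxiredoxin, stood at -0.13 (SE 0.18), and Msrb3, a methionine sulfoxide reductase, at -0.35 (SE 0.13, adjusted p = 0.377). The 10 other dismutases and peroxidases had a median of 0.03 with 0 called by edgeR, beside the same 0.0153% of all genes. Gpx4, the peroxidase that acts on lipid peroxides, had the smallest p of the list, at 0.28 (SE 0.11, edgeR adjusted p = 0.391). It had 279, 263 and 269 CPM in 21-month mice, against 236, 242 and 192 CPM in 6-month mice. These groups did not overlap, where 7.81% of all genes were higher without overlap and 16.1% either. Park7, the DJ-1 protein, stood at -0.14 (SE 0.13).

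Genes that produce oxidants or uncouple respiration, 12 in all, had a median of -0.15 at 21 against 6 months, beside -0.01 over all genes. Of the 12, 9 stood below 0 and 3 above 0, where 48.0% of all genes stood above 0. Calls by edgeR numbered 0, beside 0.0153% of all genes. Nos1, the nitric oxide synthase of the muscle membrane, stood at 0.27 (SE 0.11, adjusted p = 0.428). Ucp3, a mitochondrial carrier of muscle, stood at 0.27 (SE 0.47) and varied widely between mice of an age. Of the genes named from the pathway lists, Mgst1, Gpx4 and Nos1 were higher without overlap at 21 against 6 months. Gsk3b, Tkt, Msrb3, Chac1 and Park7 were lower without overlap. Of all genes, 7.81% were higher without overlap in this comparison and 8.31% lower.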

How the data were processed

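The authors deposited 1 table of estimated counts (expected counts) of reads per gene, by Entrez ID and symbol, for 9 libraries. Of the values in a library, 90.01 to 90.7% were whole within 0.005. The submitters' processing notes name mm10 as genome build. TRIzol extraction and oligo(dT) enrichment come from the labels' protocols. The sources used here do not state the aligner, the counter or its use of strand. Columns were matched to samples by life stage and number. Each age is represented by separate mice, per the design text.

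Estimated counts were rounded, filtered with filterByExpr (minimum count 10) and scaled with TMM factors (0.923 to 1.05). A quasi-likelihood fit in edgeR 4.0.16, run in R 4.3.3, took all 9 libraries, and age entered as a factor or, for the slope, as a number. Adjustment followed Benjamini-Hochberg over 13044 genes at 0.05. Intervals for fold changes come from the SE with 6 residual and 4.24 prior degrees of freedom. The members, lists and tests were chosen with earlier results of these data known. Of the wider lists the text names Nfe2l2, Keap1 and Bach1, the pair of genes with the highest mean in each list, the smallest p at 21 against 6 months in each list and any call. Correlations between genes and between same-numbered mice used log2 CPM with a prior of 0.5. Those with the oxidative fibre sums used log2 values with no prior. Promoter sequences are from RefSeq.

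Alternatives were DESeq2 1.42.0, RLE factors, total counts, no filter, at least 5 CPM in 3 libraries, a replicate block, only the 2 groups compared, limma 3.58.1 voom with quality weights, and each library left out. Leaving out the 3 outlying libraries was added after seeing the data. The procedure was tested on simulated data. Libraries of an age differed beyond counting noise (chi-square per gene 10.5 to 74.5), and 0 columns belonged to other samples.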

Additional observations from a re-analysis of the deposited data

How the results depend on the processing

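Over the alternatives, 0 of 10 members were called at 21 against 6 months, 15 against 6 months, 21 against 15 months and over the 3 ages, including every fit without 1 library (0 to 0). On the age slope 1 member, Srxn1, was called by DESeq2 at 1.03 (adjusted p = 0.0396) and 0 by the others. Of 710 values of single members under the alternatives, 655 kept their direction and their side of the threshold and 54 changed direction. Over the whole table, genes called at 21 against 6 months numbered 2 in edgeR, 200 in DESeq2, 59 with quality weights, 30 with no filter, 5 with the replicate block, 1 with total counts and 0 to 42 without 1 library. At 15 against 6 months they were 1 in edgeR, 114 in DESeq2 and 0 to 10 without 1 library, and at 21 against 15 months 0 in edgeR and 3 in DESeq2. On the slope they were 29 in edgeR, 272 in DESeq2, 2 with the replicate block, 2 without the 3 outlying libraries and 0 to 43 without 1 library. Over the 3 ages they were 0 in edgeR, 204 in DESeq2, 5 with the replicate block, 5 with no filter and 3 with quality weights. Same-numbered mice of different ages deviated from their age means with correlations of -0.47 to 0.43, of mixed sign. Whether same-numbered mice shared a batch was not tested. With the replicate block 0 members were called and Srxn1 stood at 1.01 at 21 against 6 months.

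Direction changed for the following log2 fold changes, and the cause was not tested. With total counts, which shift the median of all genes by 0.08 at 21 against 6 months, Gclc stood at 0.022 and Gpx1 at 0.065 in that comparison, Txnrd1 at 0.002 and Gpx1 at 0.061 at 15 against 6 months, Gpx1 at 0.004 at 21 against 15 months, and Gclc at 0.017 and Gpx1 at 0.068 on the slope. With quality weights Sod2 stood at -0.098 at 21 against 6 months and -0.042 on the slope, Gpx1 at 0.011 at 15 against 6 months, and Hmox1 at 0.013 and Cat at 0.011 at 21 against 15 months. Without the 3 outlying libraries Gclc stood at 0.096, Gclm at 0.008, Sod2 at -0.232 and Gpx1 at 0.04 at 21 against 6 months. In the same fit Sod2 stood at -0.054 and Gpx1 at 0.143 at 15 against 6 months, Hmox1 at 0.088 and Cat at 0.085 at 21 against 15 months, and Gclc at 0.084, Sod2 at -0.221 and Gpx1 at 0.056 on the slope.

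Without 1 library, ranges that crossed 0 at 21 against 6 months were -0.212 to 0.041 for Gclc, -0.148 to 0.169 for Sod2, -0.099 to 0.064 for Gpx1 and -0.154 to 0.374 for Cat. At 15 against 6 months they were -0.257 to 0.046 for Txnrd1, -0.329 to 0.06 for Sod1, -0.091 to 0.072 for Gpx1 and -0.123 to 0.56 for Cat. At 21 against 15 months they were -0.288 to 0.035 for Sod2, -0.38 to 0.251 for Cat, -0.139 to 0.123 for Nqo1, -0.143 to 0.234 for Gclm, -0.076 to 0.055 for Gpx1 and -0.052 to 0.097 for Gclc. On the slope they were -0.212 to 0.041 for Gclc, -0.076 to 0.181 for Sod2, -0.099 to 0.064 for Gpx1, -0.154 to 0.373 for Cat and -0.01 to 0.36 for Txnrd1.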
